A study of Mus musculus with 6 samples.

Results

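The 10 imprinted genes described here, all linked to growth, are 10 of the 24054 genes in the count table and were followed across 6 RNA-seq libraries of mouse gastrocnemius, a predominantly fast calf muscle. They were taken by symbol: the long noncoding RNAs H19, Meg3, Rian and Mirg, and the protein-coding genes Dlk1, Cdkn1c, Peg3, Plagl1, Grb10 and Mest. The rule for choosing them used no measured value, although earlier results of these data were known when they were chosen. Of the 10, 8 held enough reads to be tested, none of these differed between genotypes at an adjusted p of 0.05, and the clearest excursions belonged to single libraries, H19 in 1 MI4OE library and Mest in 1 MI4KO library.

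An imprinted gene is transcribed mainly from the copy inherited from 1 parent, under the control of a differentially methylated region set in the germ line. Many imprinted genes act on growth before birth, those expressed from the paternal copy often promoting it and those expressed from the maternal copy often limiting it, and many of them are turned down together after birth. Several lie in clusters that share a control region, such as H19 with Igf2, and Dlk1 with Meg3, Rian and Mirg, while Cdkn1c belongs to a neighbouring cluster on the chromosome of H19. The zinc finger factor Plagl1 is known to bind and activate other imprinted genes, H19 and Cdkn1c among them, for which the genes have been described as a network. In skeletal muscle H19 and Meg3 are abundant in the developing tissue, and Peg3 and Dlk1 are known from satellite cells and regenerating fibres. These counts add both parental copies together, so imprinting itself was not measured.

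All mice were C57BL/6 males, and both groups carried a Cre recombinase under the Myl1 (myosin light polypeptide 1) gene, which is selective for skeletal muscle fibres. The 3 MI4KO libraries came from Irf4 flox/flox;Cre+ mice, which lack the transcription factor IRF4 in muscle, and the 3 MI4OE libraries from Myl1-cre mice crossed with Rosa26-LSL-IRF4, which overexpress it there. The labels give a high fat diet for every library whereas the study describes its animals on chow, so the diet behind these values is in doubt, and no age is given for these animals. Gastrocnemius of wild-type or flox mice was not analysed here: every difference is MI4OE against MI4KO, and which genotype moved cannot be told apart.

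Where a regulatory sequence or an embedded microRNA bears on the genes, it is shown here, from RefSeq on build GRCm38.p6. H19 and Mest each contain a microRNA gene, and the mature microRNAs are printed 5′ to 3′ with the seed, bases 2 to 8, in capitals. The miR-675 pair lies within H19 at chr7:142577078-142577133 on the minus strand, and the miR-335 pair within Mest at chr6:30741314-30741375 on the plus strand. No 2 of the 4 share a seed.
miR-675-5p: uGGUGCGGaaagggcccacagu
miR-675-3p: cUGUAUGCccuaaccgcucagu
miR-335-5p: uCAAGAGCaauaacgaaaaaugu
miR-335-3p: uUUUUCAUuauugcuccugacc

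The 250 bases before the start of Meg3 and Rian are shown because these genes lie in 1 cluster and had the second-highest correlation of any pair within genotype. Those of Peg3 and Mest are shown because that pair had the highest within genotype. Capitals mark matches to the motifs searched. The windows are chr12:109540746-109540995 (plus strand) for Meg3, chr12:109603695-109603944 (plus strand) for Rian, chr7:6730420-6730669 (minus strand) for Peg3 and chr6:30737800-30738049 (plus strand) for Mest.
Meg3: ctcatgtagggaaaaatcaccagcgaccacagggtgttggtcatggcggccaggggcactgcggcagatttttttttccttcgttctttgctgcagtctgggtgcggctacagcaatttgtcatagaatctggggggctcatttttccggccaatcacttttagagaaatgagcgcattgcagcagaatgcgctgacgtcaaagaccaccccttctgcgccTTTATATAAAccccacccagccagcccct
Rian: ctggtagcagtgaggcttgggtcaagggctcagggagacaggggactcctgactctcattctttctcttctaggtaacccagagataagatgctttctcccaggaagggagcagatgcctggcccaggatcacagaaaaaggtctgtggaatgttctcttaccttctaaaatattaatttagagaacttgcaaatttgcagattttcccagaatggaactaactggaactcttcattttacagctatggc
Peg3: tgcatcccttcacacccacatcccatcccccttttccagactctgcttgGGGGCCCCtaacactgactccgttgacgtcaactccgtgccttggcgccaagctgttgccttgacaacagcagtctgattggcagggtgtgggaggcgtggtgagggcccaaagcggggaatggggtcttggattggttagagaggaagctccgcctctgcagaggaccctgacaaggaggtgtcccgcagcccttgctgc
Mest: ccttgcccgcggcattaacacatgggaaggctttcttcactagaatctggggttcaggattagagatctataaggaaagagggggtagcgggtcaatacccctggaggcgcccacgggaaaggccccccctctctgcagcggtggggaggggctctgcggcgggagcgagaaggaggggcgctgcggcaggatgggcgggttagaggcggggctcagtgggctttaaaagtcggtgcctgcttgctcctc

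RefSeq windows were matched for 8 of the 10 genes, 12 windows in all, H19 and Cdkn1c being those without one. The Meg3 window holds TATAAA, the TATA box, on both strands in overlapping matches that end near the start, and 12.4% of the 32851 windows of all genes hold this motif. All motifs were searched on both strands, and those with a shared GAAA can overlap. The Peg3 window holds GGGGCCCC, the core bound by Plagl1, which 0.889% of all windows hold. A window before another start of Meg3 holds GGAA and GAAA with 2 bases between, a composite of ETS and IRF sites (2.3% of all windows), and a window before another start of Mest holds CAGCTG, an E-box of MyoD and myogenin (13%). The interferon-stimulated response element that IRF factors bind, searched as GAAA and GAAA with 2 bases between (2.98% of all windows), and AANATGGC, a YY1 motif (3.91%), were in 0 of the 12 windows. These are matches of letters only. The windows shown hold 10 CpG for Meg3, 0 for Rian, 8 for Peg3 and 14 for Mest, against a median of 6 over all windows.

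The libraries held 18828605 to 29239585 expected counts, so that 3 counts corresponded to 0.101 to 0.148 CPM (counts relative to library size after scaling by the TMM factors that edgeR fits). Irf4 counts were 0 to 6 in MI4KO and 2864 to 10557 in MI4OE, as labelled. The defining muscle genes were present in every library. MI4OE replicate 1 stood apart, with 25.5% of its counts in its 10 most abundant genes against 32.8% to 36.8% elsewhere and with slow-fibre genes far above the other libraries, and MI4KO replicate 3 had the highest level of adipocyte genes. In bulk tissue, fewer cells of a type and less RNA per cell cannot be told apart. The labels do not say that the libraries came from separate animals, so the p-values measure the spread between these samples.

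Per length, H19 stood above the others, and the lowest genes lay near the detection limit. The mean level over the 6 libraries was 215 ± 170 TPM (SD, n = 6; transcript abundance adjusted for length) for H19, 18.3 ± 5.03 TPM for Cdkn1c and 6.52 ± 1.96 TPM for Grb10. Only these steps were free of overlap: every H19 value was above every Cdkn1c value and every Cdkn1c value above every Grb10 value. Below them came Mest (mean 3.81 TPM, median 1.71), Meg3 (1.58 TPM), Rian (0.993 TPM), Peg3 (0.588 TPM), Dlk1 (0.225 TPM), Mirg (0.16 TPM) and Plagl1 (0.045 TPM), each with a range that overlapped its neighbour's. Within libraries the order of some neighbours still held, Rian being below Meg3 and Peg3 below Rian in 6 of 6, whereas Meg3 was below Mest in 3 of 6 and Mirg below Dlk1 in 3 of 6. Mirg, Plagl1 and, in 1 library, Dlk1 were at a handful of reads.

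Across all 12660 genes tested, edgeR's quasi-likelihood test called 3 (0.0237%) at an adjusted p of 0.05 and 959 (7.58%) at an unadjusted p of 0.05, 4.9% of genes being higher and 2.68% lower in MI4OE at the latter. The criterion that the study used, a 1.5-fold change with an unadjusted p of 0.05, called 841 (6.64%), 4.36% higher and 2.28% lower. Of the 8 imprinted genes tested, 0 passed any of these thresholds, and their lowest adjusted p was 0.665. DESeq2 and edgeR's exact test likewise gave 0 at an adjusted p of 0.05, where they called 0.877% and 0.853% of all genes, and each gave 1, H19, at an unadjusted p of 0.05, where they called 8.61% and 8.43%. Of the 8, 5 had a fitted log2 fold change above 0 and 3 one below 0, and their median was 0.41 against a median of 0 over all genes, 50% of which were above 0. Groups did not overlap for 1 of the 8 (12.5%), H19, against 12.9% of all genes tested (7.38% higher and 5.48% lower in MI4OE), a share near the background.

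**Figure D1:**
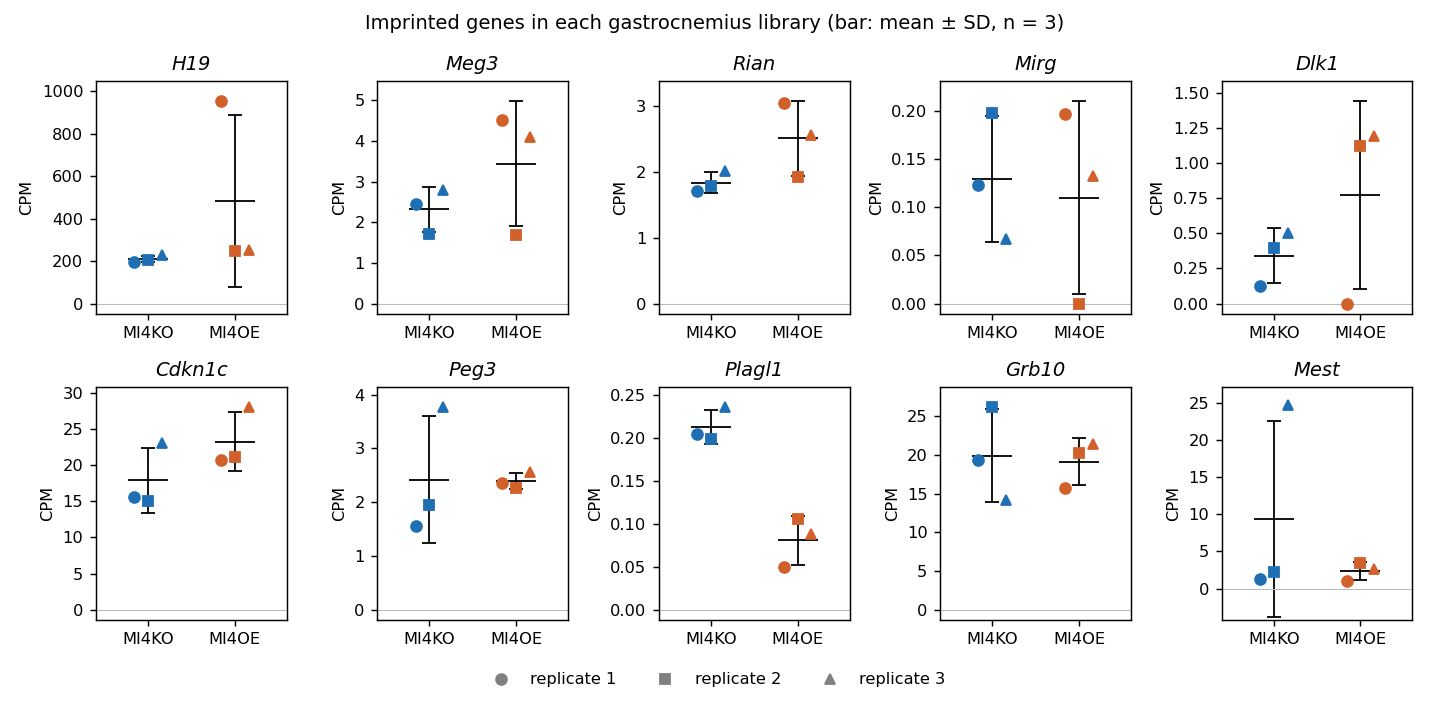
Level of each imprinted gene in each library, in CPM on a linear axis with its own scale per gene; circles, squares and triangles are replicates 1, 2 and 3 of MI4KO (blue) and MI4OE (orange), and bars are the mean ± SD (n = 3). H19 at 952 CPM in MI4OE replicate 1 and Mest at 24.7 CPM in MI4KO replicate 3 stand far above the other 5 libraries.

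H19, a maternally expressed noncoding RNA that restrains growth and is the host of miR-675, was the most abundant of the genes. It measured 197.5, 207 and 227 CPM in MI4KO replicates 1, 2 and 3 and 952, 246 and 251 CPM in MI4OE replicates 1, 2 and 3. All MI4OE libraries were above all MI4KO libraries, but MI4OE replicates 2 and 3 were close to the top of MI4KO while replicate 1 was far above every other library. The means were 210.5 ± 14.9 CPM and 483 ± 406 CPM (SD, n = 3 each). H19 had a fitted log2 fold change of 1.2 ± 0.52 (SE) and an adjusted p = 0.665 by edgeR, and the unadjusted p was 0.0522. Without MI4OE replicate 1 the log2 fold change was 0.24 (adjusted p = 0.993 by edgeR). An exact two-sided permutation test gave p = 0.1, the smallest that 3 against 3 allows. The reads of the miR-675 gene inside H19, which do not measure the mature microRNA, were 40.15, 58.67 and 55.22 expected counts in MI4KO and 102.48, 49.51 and 42.63 in MI4OE, not scaled for depth. The miR-675 gene lies on the same strand as H19, and RSEM divides ambiguous reads between them. Its highest count, in MI4OE replicate 1, is therefore not independent of that of H19.

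The high H19 library was also the one rich in slow-fibre RNA. All 9 slow-fibre markers were in the table and 8 were above 0 in every library, and their summed level was 39.8, 138.5 and 113.5 CPM in MI4KO replicates 1, 2 and 3 and 7329, 51.7 and 699 CPM in MI4OE replicates 1, 2 and 3. MI4OE replicate 1 therefore exceeded the next library in both measures, whereas MI4OE replicate 3, second in slow-fibre genes, had an H19 level close to that of replicate 2. All 9 slow-fibre markers had a higher fitted level in MI4OE (median log2 fold change 6.2). Of these 7 had an unadjusted edgeR p under 0.05, against 4.9% of all genes, and none an adjusted one. The groups overlapped for each of the 9. Endothelial and fibroblast markers also ran higher in MI4OE: the sum of 10 of 10 endothelial markers was 142.9 to 230.5 CPM in MI4KO and 259 to 462 CPM in MI4OE, and that of 10 of 10 fibroblast markers was 188 to 306 CPM and 304.5 to 451 CPM, with no marker of either list at 0. The sum of 7 Schwann cell markers, 6 of them above 0 in every library, was 16.4 to 104 CPM in MI4KO and 65.3 to 204 CPM in MI4OE, overlapping between groups, and 7 of 7 had a higher fitted level in MI4OE (median log2 fold change 1.39), none at an unadjusted edgeR p of 0.05. The 8 markers of regenerating or denervated muscle, 7 of them above 0 in every library, summed to 40.7 to 52.8 CPM in MI4KO and 58.2 to 87.5 CPM in MI4OE, with no overlap and the highest sum in MI4OE replicate 1. The part of these markers in the H19 difference, and in those of Dlk1 and Peg3, was not tested.

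Meg3, Rian and Mirg are transcribed from the maternal copy of the Dlk1 cluster on chromosome 12, Meg3 acting as a growth-limiting noncoding RNA, and Rian and Mirg carrying small nucleolar RNAs and microRNAs. Meg3 measured 2.46, 1.70 and 2.79 CPM in MI4KO and 4.53, 1.68 and 4.11 CPM in MI4OE. MI4OE replicates 1 and 3 were above every MI4KO library and replicate 2 was level with the lowest. Meg3 had a fitted log2 fold change of 0.56 ± 0.41 (SE) and an adjusted p = 0.819 by edgeR. Rian measured 1.72, 1.78 and 2.02 CPM in MI4KO and 3.05, 1.92 and 2.56 CPM in MI4OE, in the same order of libraries within MI4OE as Meg3, and MI4OE replicate 2 lay inside the MI4KO range. Rian had a fitted log2 fold change of 0.44 ± 0.28 (SE) and an adjusted p = 0.785 by edgeR. Without MI4OE replicate 1 the values were 0.31 for Meg3 and 0.28 for Rian, and without MI4OE replicate 2 they were 0.89 and 0.60. Mirg had 3, 5 and 2 counts in MI4KO and 4, 0 and 3 in MI4OE and did not pass the filter on low counts. Its pooled ratio of MI4OE to MI4KO was 0.777, with an exact 95% interval of 0.251 to 2.26 that covers counting error only, so a difference was not detectable at this depth.

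Dlk1, the paternally expressed gene of the same cluster, encodes a membrane protein related to Notch ligands known for holding back the differentiation of fat cell precursors. It had 3, 10 and 15 counts in MI4KO and 0, 32 and 27 counts in MI4OE, or 0.123, 0.396, 0.504, 0, 1.12 and 1.19 CPM. MI4OE replicates 2 and 3 were the highest and MI4OE replicate 1, the library with the most H19, Meg3 and Rian, was the only one without a read, which allows up to 0.148 CPM. Dlk1 had a fitted log2 fold change of 1.17 ± 1.01 (SE) and an adjusted p = 0.847 by edgeR. That value was 1.73 without MI4OE replicate 1 and 0.75 without MI4OE replicate 3. With limma on log2(TPM + 1) and log2(TPM + 0.1) it was 0.19 and 0.51. The pooled counts, 28 in MI4KO and 59 in MI4OE, gave a ratio of 2.34 with an exact 95% interval of 1.47 to 3.81, which covers counting error only and not the spread between libraries of a group, from 0 to 32 counts in MI4OE.

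Cdkn1c encodes p57, an inhibitor of cyclin-dependent kinases that arrests the cell cycle, and Grb10 an adaptor that dampens signalling from the insulin and IGF1 receptors. Cdkn1c measured 15.6, 15.02 and 23.1 CPM in MI4KO and 20.7, 21.1 and 28.0 CPM in MI4OE. The groups overlapped through MI4KO replicate 3, which was above MI4OE replicates 1 and 2. Cdkn1c had a fitted log2 fold change of 0.38 ± 0.22 (SE) and an adjusted p = 0.765 by edgeR, and it was 0.59 without MI4KO replicate 3 (adjusted p = 0.566) and 0.21 without MI4OE replicate 3. Grb10 measured 19.4, 26.2 and 14.1 CPM in MI4KO and 15.7, 20.2 and 21.5 CPM in MI4OE, the MI4KO libraries spanning all of the MI4OE values. Grb10 had a fitted log2 fold change of -0.05 ± 0.25 (SE), and its sign turned to 0.03 with total counts in place of TMM and to 0.18 without MI4KO replicate 2.

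Plagl1, the zinc finger factor named above, was barely detected. It had 5, 5 and 7 counts in MI4KO and 1, 3 and 2 counts in MI4OE, and did not pass the filter. Every MI4OE value was below every MI4KO value, all 3 being at or under 3 counts. The pooled ratio of MI4OE to MI4KO was 0.392, with an exact 95% interval of 0.126 to 1.04 that covers counting error only. With no filter on low counts the adjusted edgeR p was 0.799. An exact two-sided permutation test of log2(CPM + 1) gave p = 0.1, the smallest that 3 against 3 allows.

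Peg3, a paternally expressed zinc finger protein linked to stress-induced cell death and to satellite cells, measured 1.56, 1.94 and 3.76 CPM in MI4KO and 2.36, 2.27 and 2.56 CPM in MI4OE. The MI4OE libraries lay close together, inside the spread of MI4KO, whose replicate 3 was the highest. Peg3 had a fitted log2 fold change of -0.02 ± 0.36 (SE), and 0.44 without that library. The 8 satellite cell markers, all above 0 in every library, summed to 58.6 to 92.5 CPM in MI4KO and 66.3 to 70.3 CPM in MI4OE. Pax7 and Myf5, which define these cells, were lowest in MI4KO replicate 1, each at 0.328 CPM, where Peg3 was lowest too, although the sum was highest there. In MI4KO replicate 3, where Peg3 was highest, Pax7 was at 0.605 CPM and Myf5 at 0.403 CPM. Their highest values were 1.59 CPM in MI4OE replicate 3 and 0.713 CPM in MI4KO replicate 2. The part of satellite cells in the Peg3 values was not tested.

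Mest, a paternally expressed hydrolase-fold protein known for its rise in expanding adipose tissue, measured 1.31, 2.22 and 24.7 CPM in MI4KO and 1.03, 3.39 and 2.65 CPM in MI4OE. MI4KO replicate 3 was far above the other 5, and those 5 overlapped between the groups. The highest value was 23.9 times the lowest, against 4.82 for H19, 2.70 for Meg3 and 1.85 for Grb10. Mest had a fitted log2 fold change of -1.99 ± 1.06 (SE) and an adjusted p = 0.729 by edgeR. Without MI4KO replicate 3 its sign turned, to 0.42. The 7 adipocyte markers, all above 0 in every library, summed to 184, 346 and 965.5 CPM in MI4KO replicates 1, 2 and 3 and to 266, 139 and 113.5 CPM in MI4OE replicates 1, 2 and 3. Of these sums Fabp4, which endothelium also expresses, made up 260 of the 266 CPM in MI4OE replicate 1. Without Fabp4, left out after the values were seen, the sums were 56.2, 134 and 568 CPM in MI4KO and 6.25, 34.8 and 9.76 CPM in MI4OE, which is the order of Mest within each group. MI4KO replicate 3 was highest in Mest and in both sums. The adipocyte markers went with genotype too, in that 7 of 7 had a lower fitted level in MI4OE, 6 of them at an unadjusted edgeR p of 0.05 and none at an adjusted one, 5 did not overlap between groups, and their median log2 fold change was -3.62. The part of fat tissue in the Mest value was not tested. Mest overlaps Copg2 on the opposite strand. Copg2 measured 9.45 to 11.6 CPM over the 6 libraries, with 11.2 CPM in MI4KO replicate 3. The miR-335 gene inside Mest had 0 counts in every library.

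**Figure D2:**
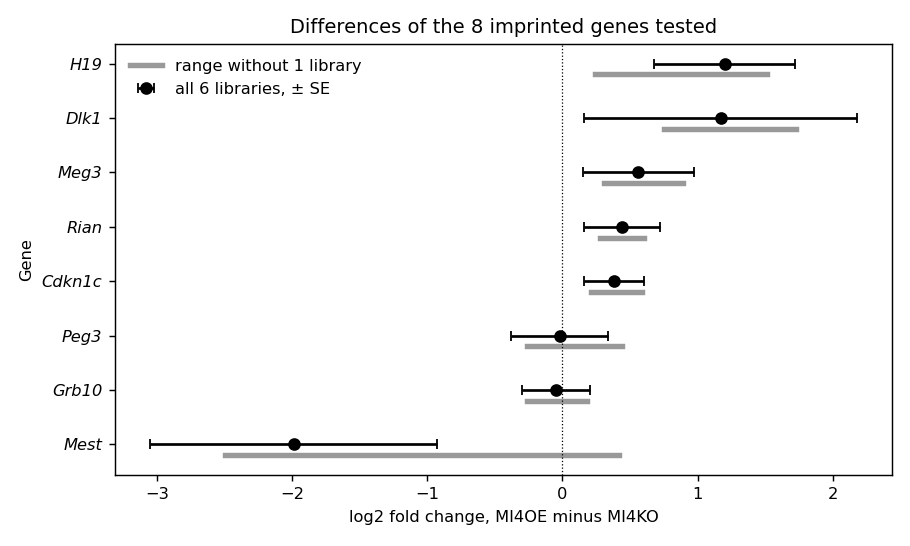
Log2 fold change of MI4OE against MI4KO for the 8 imprinted genes tested (horizontal axis); points are edgeR's estimates from all 6 libraries, black bars the standard error, and grey bars the range when each library was left out in turn. The estimates run from -1.99 for Mest to 1.2 for H19, and the grey bars of Mest, Peg3 and Grb10 cross 0.

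Of the genes, 6 are expressed from the maternal copy and 4 from the paternal copy, a grouping made after the values were seen. Of the 5 maternally expressed genes tested, 4 were higher in MI4OE and 1 lower (median log2 fold change 0.44), and of the 3 paternally expressed genes tested, 1 was higher and 2 lower (median -0.02). The difference between these sets was not tested, and Mest and H19 each rest on 1 library.

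Whether the genes varied together was asked within genotype, with each gene's log2(CPM + 1) taken as its deviation from the mean of its group, which leaves out any shared difference between genotypes. The 8 genes tested gave 28 pairs, and the pairs of Mirg and Plagl1 were not computed because their counts are too low. Of the 28 Pearson correlations 17 (60.7%) were positive and 11 negative, with a median of 0.17, and 4 (14.3%) were above 0.8. Over all 80131470 pairs of tested genes, 50.1% were positive, the median was 0 and 10.3% were above 0.8. In an exact two-sided permutation within groups (36 arrangements, smallest possible p of 0.0278) the lowest p over the 28 pairs was 0.0556, and the lowest after Benjamini-Hochberg adjustment was 0.566. No pair passed, and with so few arrangements no single pair could have passed after adjustment whatever its r, so the test cannot show joint variation of 1 pair with 6 libraries. Pairs that share a gene are not independent.

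**Figure D3:**
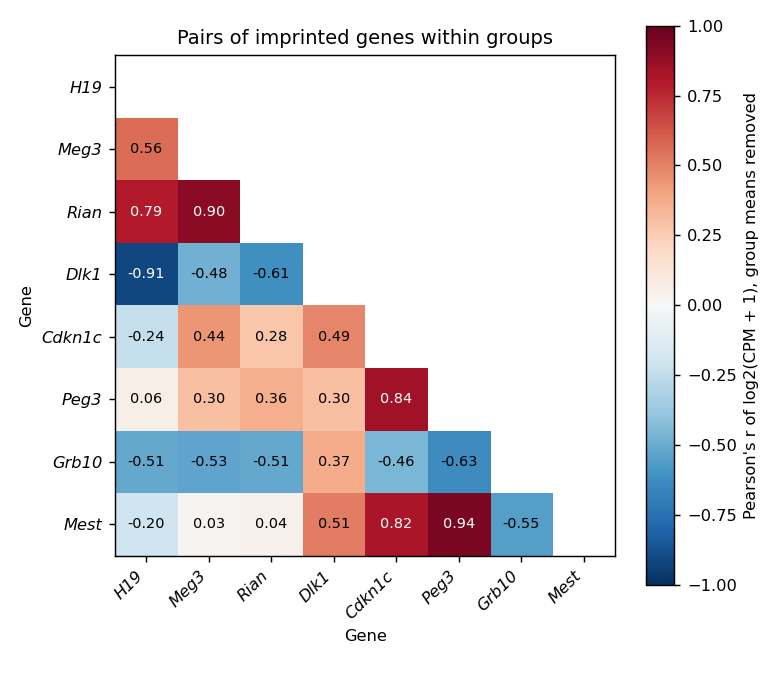
Pearson correlation of each pair of tested imprinted genes over the 6 libraries, computed on log2(CPM + 1) after removing each group's mean; colour runs from -1 to 1 and each cell gives r. Meg3 with Rian (0.90), Peg3 with Mest (0.94) and Cdkn1c with Peg3 (0.84) are the highest, and Grb10 is negative with every gene except Dlk1.

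The neighbours Meg3 and Rian had a Pearson r of 0.90 (exact permutation p = 0.0556, adjusted 0.566) and a Spearman rho of 0.89 (exact permutation p = 0.0556, adjusted 0.583). The relation was 0.54 without MI4OE replicates 1 and 3, the libraries farthest from the median of Meg3, and 0.51 to 0.95 when 1 library was left out. Over the 6 libraries without removing the group means it was 0.88 (exact permutation p = 0.0264, adjusted 0.34). Among all 12659 other genes, ranked by that r, Rian came at place 257 for Meg3 and Meg3 at place 767 for Rian. On log2(TPM + 1) and log2(TPM + 0.1) the r within groups was 0.63 and 0.58 (exact permutation p = 0.278 for each). Dlk1 did not follow its maternally expressed neighbours: r was -0.48 with Meg3 (exact permutation p = 0.583) and -0.61 with Rian (exact permutation p = 0.667). Both rest on MI4OE replicate 1, where Dlk1 had no read, and were 0.09 and 0.50 without it.

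H19 and Cdkn1c, both maternally expressed from chromosome 7, had an r of -0.24 (exact permutation p = 0.861). Without MI4OE replicate 1 it was 0.85. H19 and Dlk1 had the most negative r of all pairs, -0.91 (exact permutation p = 0.333), which became 0.90 without that same library. H19 and Igf2, which compete for shared enhancers on opposite parental copies, had an r of 0.60 (exact permutation p = 0.556), and -0.06 without MI4OE replicate 1. The sign of each of these relations of H19 turned when that 1 library was left out.

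The highest r of all pairs was that of Peg3 and Mest, 0.94 (exact permutation p = 0.111, rho 0.83), and Cdkn1c and Peg3 followed Meg3 and Rian with 0.84 (exact permutation p = 0.111, rho 0.89). All of these genes were highest, within MI4KO, in replicate 3, the library with the most adipocyte RNA, and the r of Peg3 and Mest was 0.31 without it and that of Cdkn1c and Peg3 0.40. Within MI4KO that library was also highest in the endothelial, fibroblast and regenerating-muscle marker sums (230.5, 306 and 52.8 CPM). Within MI4OE, Peg3 and Cdkn1c were highest in replicate 3, which was not highest in either adipocyte sum. The part of these markers in the correlations was not tested. Grb10 was opposite to most of the others, with a negative r to 6 of the 7, the lowest being -0.63 with Peg3 (exact permutation p = 0.556), which became 0.72 without MI4KO replicate 3.

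Pooled over the 6 libraries without removing the group means, 16 of the 28 correlations were positive and 12 negative, with 3 (10.7%) above 0.8 against 7.43% of all gene pairs. The lowest exact permutation p was 0.00417 for H19 and Rian (r 0.86, adjusted p 0.117; r 0.72 without MI4KO replicate 1 and MI4OE replicate 1), and 4 pairs had an unadjusted p under 0.05. None passed after adjustment.

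The network beyond these genes was read from a list of 50 other imprinted genes, all of them in the table and 30 of them tested. Of the 30, 15 were higher in MI4OE and 15 lower, and the median log2 fold change was 0.01. With the quasi-likelihood test of edgeR, 2 were higher and 4 lower at an unadjusted p of 0.05 (20% of the 30, against 7.58% of all genes), and none passed at an adjusted p of 0.05, whereas DESeq2 and the exact test each called Nnat and Slc22a3, against 0.877% and 0.853% of all genes. Over all 30 tested, the groups did not overlap for 20%, the same 6 genes, against 12.9% of all genes. Another 6 genes of the list were at 0 in every library: Phlda2, Magel2, Kcnk9, Rasgrf1, Ins2 and Nespas.

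Igf2, the paternally expressed growth factor next to H19, measured 18.6, 17.8 and 17.0 CPM in MI4KO and 36.1, 22.3 and 33.7 CPM in MI4OE. Every MI4OE library was above every MI4KO library, and the MI4KO libraries were close together. Igf2 had a fitted log2 fold change of 0.79 ± 0.20 (SE) and an adjusted p = 0.495 by edgeR, and it ran from 0.65 to 0.97 over the alternatives. Its libraries stood in the order of the fibroblast marker sums within MI4OE (451, 304.5 and 409 CPM in replicates 1, 2 and 3) but not within MI4KO (208, 188 and 306 CPM), where Igf2 was lowest in the library with the highest sum. The part of the fibroblast, endothelial and regenerating-muscle markers, which ran higher in MI4OE, in the Igf2 value was not tested. Igf2r, the receptor that clears IGF2, had a log2 fold change of -0.09 ± 0.22 (SE). Dcn, a matrix proteoglycan made by fibroblasts and imprinted in placenta, measured 127.6, 84.5 and 133 CPM in MI4KO and 224, 160 and 223 CPM in MI4OE, a log2 fold change of 0.81 ± 0.24 (SE), adjusted p = 0.521 by edgeR. The fibroblast marker sum given with H19 also ran higher in MI4OE, with MI4KO replicate 3 level with MI4OE replicate 2, and its part in the Dcn value was not tested.

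Nnat, a paternally expressed proteolipid of the endoplasmic reticulum that adipose tissue also expresses, measured 7.74, 24.0 and 84.9 CPM in MI4KO and 0.640, 2.45 and 0.883 CPM in MI4OE. It was lower in every MI4OE library, and its libraries stood, within each group, in the order of the adipocyte marker sums without Fabp4. With Fabp4 in the sum that order held in MI4KO but not in MI4OE, where replicate 1 had the highest sum and the lowest Nnat. Nnat had a fitted log2 fold change of -4.83 ± 0.96 (SE) and an adjusted p = 0.433 by edgeR, against 0.00185 by DESeq2 and 0.000334 by edgeR's exact test, and the log2 fold change was -3.55 without MI4KO replicate 3. Slc22a3, an organic cation transporter, measured 3.48, 1.03 and 2.65 CPM in MI4KO and 0.443, 0.489 and 0.574 CPM in MI4OE, a log2 fold change of -2.24 ± 0.49 (SE). Its adjusted p was 0.433 by the quasi-likelihood test, 0.0116 by DESeq2 and 0.0139 by the exact test. With limma on log2(TPM + 1) and log2(TPM + 0.1) the log2 fold change of Slc22a3 was -0.69 and -1.67. Slc38a4, an amino acid transporter, and Asb4, a subunit of a ubiquitin ligase, had log2 fold changes of -0.82 and -0.74 and adjusted edgeR p-values of 0.626 and 0.567. Slc38a4 was at -0.52 without MI4OE replicate 1 and -1.19 without MI4OE replicate 2, and Asb4 was at -0.46 without MI4KO replicate 1. Within MI4KO, Slc38a4 (115.5, 109 and 103.5 CPM in replicates 1, 2 and 3) and Asb4 (15.8, 9.9 and 8.9 CPM) fell as the adipocyte sums rose. Slc22a3 did not follow those sums either. Within MI4OE, Slc38a4 followed the sums without Fabp4 (32.9, 90.1 and 62.8 CPM), and Asb4 and Slc22a3 did not. Of 11 fast-fibre markers 9 had a lower fitted level in MI4OE, and Slc38a4 stood in the order of the sum of all 11 within both groups. The part of adipocyte or fast-fibre RNA in these lower values was not tested.

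**Figure D4:**
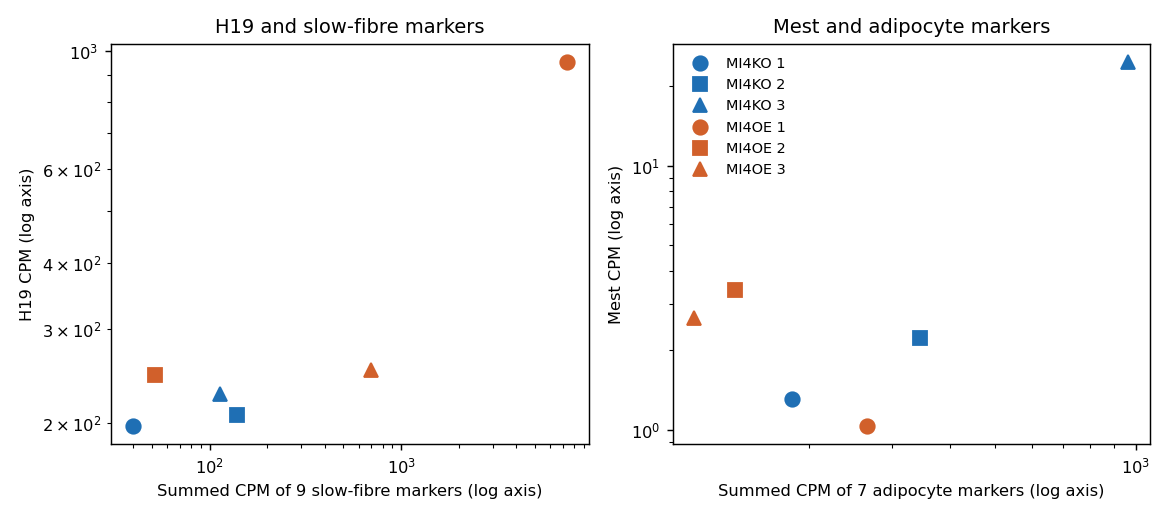
H19 level against the summed level of 9 slow-fibre markers (left) and Mest level against that of 7 adipocyte markers (right), in CPM on log axes; each symbol is 1 library, blue for MI4KO and orange for MI4OE. MI4OE replicate 1 is highest on both axes on the left, and MI4KO replicate 3 is highest on both axes on the right.

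Genes that keep imprints, DNA methyltransferases, zinc finger proteins and chromatin factors that read or write the marks, showed no called difference. Of 12 listed, 9 were tested, 4 being higher and 5 lower (median log2 fold change -0.03), and 0 had an unadjusted p under 0.05 by edgeR's quasi-likelihood test, by DESeq2 or by the exact test. These tests called 7.58%, 8.61% and 8.43% of all genes at that threshold, so that 0 of 9 is near the background. Dppa3, a germ line and oocyte factor, was at 0 in every library.

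Transcript usage, as RSEM divides reads among isoforms, varied between libraries of the same genotype and was not tested. For Grb10, with 2 transcripts, the 4764-base form took 69.0%, 22% and 34.7% of the gene's counts in MI4KO and 77.4%, 44.6% and 63.9% in MI4OE, overlapping ranges that span most of the scale. For Cdkn1c the 1942-base form took 0%, 11.9% and 14.9% in MI4KO and 17.9%, 42.2% and 13.9% in MI4OE, the 1904-base form taking the rest. For Meg3 the 1913-base form took 50.4% to 59.1% in MI4KO and 52.9% to 64.0% in MI4OE, and the 11472-base form the rest, with the 11460-base form at 0. For Mest the 2565-base form took 42.5%, 97.7% and 95% in MI4KO and 100%, 83.7% and 51.3% in MI4OE, so that the high Mest level of MI4KO replicate 3 lay almost wholly in this form. In each library with Dlk1 reads, all of them were given to 1 of its 5 transcripts and the choice differed between libraries. H19, Rian, Mirg, Peg3 and Plagl1 had 1 transcript each.

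**Figure D5:**
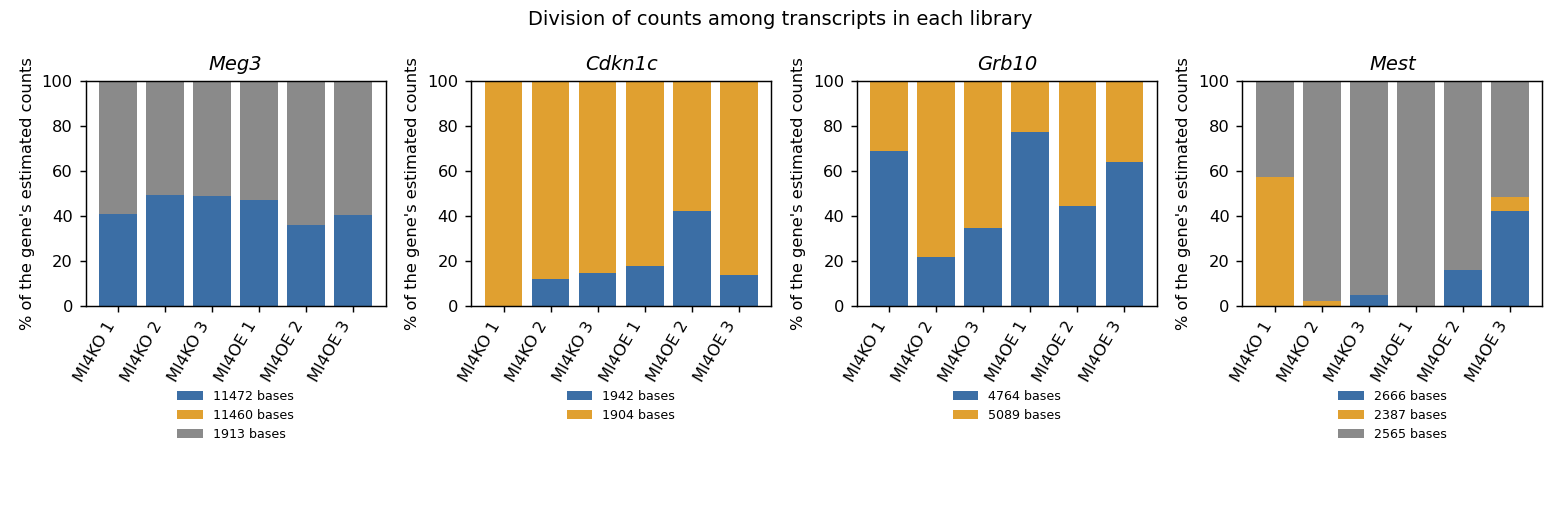
Share of the gene's expected counts, in percent, that RSEM gave to each transcript in each library, as stacked bars for Meg3, Cdkn1c, Grb10 and Mest; transcripts are named by their length in bases. The 4764-base form of Grb10 took from 22% to 77.4% and its ranges in MI4KO and MI4OE overlap.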

How the data were processed

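RNA of 3 MI4KO and 3 MI4OE gastrocnemius muscles was made into stranded libraries enriched for mRNA. As described in the study and per the labels, the authors mapped single reads to a UCSC transcript set with Bowtie2 2.1.0 and quantified them with RSEM 1.2.15, after demultiplexing with bcl2fastq 2.17. The build of their transcript set is not given in the sources used here. The expected counts, deposited by gene and by transcript, are RSEM's estimates, which can be fractional and divide ambiguous reads among matching transcripts. The deposited TPM values are adjusted for effective transcript length. Deposited tables of the authors' own comparison (fold changes, p-values) were not used.

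After rounding, a model was fitted by edgeR 4.0.16 (R 4.3.3, quasi-likelihood test, TMM, filterByExpr with a minimum count of 10 and total of 15, Benjamini-Hochberg over all 12660 genes kept), without covariates. CPM used TMM-scaled library sizes. Correlations used log2(CPM + 1). The alternatives tried were DESeq2 1.42.0, the exact test of edgeR, bias-adjusted deviances, RLE factors, total counts, TMM leaving out the 100 most abundant genes, fits unfiltered or filtered at a mean CPM of 1, limma 3.58.1 on log2(TPM + 1) and log2(TPM + 0.1), and fits without each library. The test was checked on simulated counts of 12450 genes for this comparison, where it called 77 of 99 genes changed 4-fold, 18 of 100 changed 2-fold and 7 unchanged genes. Floors of 3 counts and the 95% intervals (exact binomial) cover counting error only.

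The members and lists were chosen with earlier results of these data known. The rule named all members, Irf4, Igf2, Igf2r, other imprinted genes with an unadjusted p under 0.05 and no overlap between groups, imprint maintenance genes with such a p, the 3 genes most correlated with each member, pairs within a cluster, pairs of Plagl1 with H19, Cdkn1c, Dlk1 and Meg3, H19 with Igf2, and the 3 highest and lowest pairs. The adipocyte sum without Fabp4 was added after the data were seen. Copg2, Mir675 and Mir335 were added for overlap with members. Libraries were grouped by the genotype label. Sequences are from RefSeq (GRCm38.p6).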

Additional observations from a re-analysis of the deposited data

How the results depend on the processing

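No paired analysis was possible because libraries were numbered here by deposition order and no label pairs them. The number of all genes called at an adjusted p of 0.05 was 3, but 111 with DESeq2 and 108 with the exact test, and 1 to 4 without single libraries. At 1.5-fold and an unadjusted p of 0.05 it was 841, 468 with limma on log2(TPM + 1), and 590 to 1314 without single libraries. The count of imprinted growth genes with an unadjusted p under 0.05 was 0, and 1 (H19) with no filter, with total counts, with DESeq2 and with the exact test, and 0 to 2 without single libraries. The gene changed with the library left out: H19 and Meg3 without MI4OE replicate 2, H19 without MI4OE replicate 3, Dlk1 without MI4OE replicate 1, Cdkn1c without MI4KO replicate 3 and Mest without MI4KO replicate 1. The median of the other imprinted genes was 0.0056, and it was 0.106 with total counts, 0.0619 and 0.07 with limma at a pseudocount of 1 and of 0.1, where the medians of all genes were 0.0896, 0.0426 and 0.0612, and it ran from -0.017 to 0.0318 without single libraries.

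Signs turned as follows. The log2 fold change of Peg3 became 0.05 with total counts and 0.03 and 0.11 with limma at the larger and smaller pseudocount, and ran from -0.26 to 0.44 without single libraries. That of Grb10 became 0.03, 0.05 and 0.06 in the same fits and ran from -0.26 to 0.18. The ranges without single libraries were -2.50 to 0.42 for Mest and -0.24 to 0.06 for Igf2r. The r of H19 and Cdkn1c was 0.20 without removing the group means. Without single libraries it ran from -0.53 to 0.85, that of H19 and Dlk1 from -0.99 to 0.90, of H19 and Igf2 from -0.06 to 0.96, of Meg3 and Dlk1 from -0.84 to 0.09, of Rian and Dlk1 from -0.78 to 0.50 and of Peg3 and Grb10 from -0.84 to 0.72. The causes were not tested. H19, Meg3, Rian and Cdkn1c kept their direction in 16 of 16 alternatives and Dlk1 in 15 of 15, the filter at a mean CPM of 1 leaving it out. DESeq2 gave Mest no p. Mirg and Plagl1 are limited by depth.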

Other observations

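For each imprinted growth gene tested, the 3 genes with the highest Pearson r of log2(CPM + 1) over the 6 libraries, among 12659 others, were listed as a description. They were Higd1b, Pln and Rfxank for H19 (r 0.998, 0.995 and 0.992), of which Pln, phospholamban, is a regulator of the calcium pump known from slow fibres and heart. Higd1b is known from pericytes. For H19, 603 genes had an r above 0.9, and its level was by far the highest in MI4OE replicate 1. For Meg3 they were Atad3a, Gnb5 and Tigd4, for Rian Dpp4, Lrrc27 and Ackr2, for Dlk1 Chp2, Cabin1 and Tfap4, for Cdkn1c Ikbkb, Dtx4 and Svep1, for Peg3 Med22, Bcar3 and Cmklr1, for Grb10 Gmcl1, Gng12 and Ctcf, and for Mest Lhfpl2, Uckl1 and Pir, with r from 0.976 to 0.997. None of these lists of 3 held another of the imprinted growth genes. Of the 20 microRNA genes of the table that lie inside the imprinted growth genes, 18 had 0 counts in every library, and the highest count of any was 102.48, for miR-675.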
